A study of Homo sapiens with 12 samples.

Results

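A set of 10 genes of TGF-beta signalling was followed by symbol and Ensembl gene ID in the RNA-seq and BRIC-seq count tables of a melanoma cell line with and without extra MIR211. They were the receptors TGFBR1 and TGFBR2, the transducer SMAD3, the inhibitory SMAD6 and SMAD7, the ligand subunit INHBA, the matrix protein LTBP2 and the targets ID1, ID2 and ID3. These are 10 of the 60675 genes listed. All 10 passed the filter on low counts in RNA-seq, and 6 of them passed it in BRIC-seq. The 4 that did not pass there, SMAD6, SMAD7, ID1 and ID2, are given by their counts.

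The tested line was A375/211, which is A375 made to overexpress MIR211 and is called the MIR211 line here. Its parent, A375, is an established human melanoma line known for an activating BRAF mutation, which the MIR211 line shares by descent. Both lines were grown in Tu medium, and were labelled for 24 h with bromouridine (BrU) before BRIC-seq, in which BrU-labelled RNA is captured after a chase. RNA-seq had 2 libraries per line, lettered a and b, and BRIC-seq had a single library for each line after a chase of 0, 1, 3 and 6 h. Whether the MIR211 line is a single clone, and how the transgene is driven, is not given in the sources used here. The labels are silent on whether libraries a and b are different cultures, and the RNA-seq p-values therefore reflect library-to-library spread that may be technical. The BRIC-seq p-values have no replicate libraries behind them. They measure departures from the fitted terms across the chase times, in 1 series per line.

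In TGF-beta signalling, ligands of the TGF-beta, activin and BMP families bring together pairs of type II and type I receptor kinases at the cell surface. The type I receptor phosphorylates receptor SMADs, which bind SMAD4 and enter the nucleus to regulate genes, among them those of the inhibitory SMADs that feed back on the receptors. ID proteins bind E proteins and keep them off DNA, and ID genes are classical targets of the BMP branch. In melanocytic cells MIR211 is made from an intron of TRPM1, a target of MITF.

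The overexpressed microRNA is shown with the matches to its seed in the genes below, because these are the letters it could pair with directly. The mature sequence is from RefSeq (GRCh38.p14, chr15:31065095-31065116, minus strand), with the seed, bases 2 to 8, in capitals.
hsa-miR-211-5p: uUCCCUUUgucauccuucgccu
The complementary letters AAAGGGA were searched on the sense strand of the 3' UTR of each gene's Ensembl canonical transcript (GENCODE 44, GRCh38). They occurred in 17.3% of 19536 such 3' UTRs, whose median length was 1064 bases. TGFBR1, TGFBR2 and LTBP2 held 1 match each, SMAD6 and INHBA held 2 each, and the windows of SMAD3, SMAD7, ID1, ID2 and ID3 held no such letters. The 3' UTR was longer than that median in 7 of the 10 genes, and the longest, in TGFBR1, had 4887 bases. The matches stand in capitals within 30 bases of the sense strand, and they are a description of sequence, not of binding.
TGFBR1, chr9:99150312-99150341, plus strand: atacagactaatttttctaAAAGGGAaagt
TGFBR2, chr3:30693904-30693933, plus strand: ttttttcactactatacatAAAGGGAaagt
SMAD6, chr15:66782105-66782134, plus strand: taaagacagaacaaattgaAAAGGGAggaa
SMAD6, chr15:66782559-66782588, plus strand: ggtttatttctactttgtgAAAGGGAaaag
INHBA, chr7:41689620-41689649, minus strand: agttgcccagcccagggggAAAGGGAgcaa
INHBA, chr7:41689393-41689422, minus strand: gagacaggaattgggagggAAAGGGAgaat
LTBP2, chr14:74498828-74498857, minus strand: ccaaaacaaattaaggggaAAAGGGAgggt

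Library totals ran between 20847481 and 34130525 counts in RNA-seq and between 2671651 and 7279038 in BRIC-seq. The MIR211 gene had 36 and 18 counts in the MIR211 line, against 0 and 0 in A375, in RNA-seq. Among melanocytic markers, MITF was at 38.8 and 49 CPM in the MIR211 line and at 253 and 244 CPM in A375, while SOX10 was at 206 and 232 CPM in the MIR211 line and at 163 and 135 CPM in A375. S100B was at 94.6 and 100 CPM in the MIR211 line against 32.6 and 29 CPM in A375. DCT was at 38.1 and 39.1 CPM in the MIR211 line against 27.1 and 67.4 CPM in A375, and PMEL at 3.86 and 3.56 CPM against 13.3 and 7.93 CPM. MLANA and TYR stayed under 0.3 CPM in each RNA-seq library. These 7 markers summed to 381 and 424 CPM in the MIR211 line and to 489 and 484 CPM in A375. Of 3 keratinocyte markers, KRT5 and KRT1 were at 0 in all 4 RNA-seq libraries, and KRT14 had 12 and 17 counts in the MIR211 line against 0 and 0 in A375. Of 3 leukocyte markers, PTPRC and CD3E were at 0, and the list, then LYZ alone, summed to 1.41 and 0.809 CPM in the MIR211 line and to 2.95 and 1.36 CPM in A375. Of 3 endothelial markers, PECAM1 was at 0, and the list summed to 6.04 and 9.19 CPM in the MIR211 line and to 4.18 and 3.58 CPM in A375, mostly from KDR. The 5 fibroblast markers, of which 0 were at 0 throughout, summed to 26.9 and 25.7 CPM in the MIR211 line and to 26.2 and 61.3 CPM in A375. Within that list COL1A2 was at 0.236 and 0.518 CPM in the MIR211 line against 17.2 and 51 CPM in A375, while PDGFRB was at 12.9 and 11.8 CPM in the MIR211 line against 4.42 and 4.66 CPM in A375, and LUM at 12.3 and 11.9 CPM in the MIR211 line against 4.28 and 5.53 CPM in A375. The part of these markers in the results was not tested. In these bulk samples, fewer cells with a transcript and less of it per cell cannot be told apart.

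In RNA-seq, SMAD3 and LTBP2 showed the largest line differences of the 10, and neither passed the test. CPM here are read counts scaled to the TMM-adjusted library total, and a call is an adjusted p under 0.05 in edgeR's quasi-likelihood test with Benjamini-Hochberg adjustment over 19258 genes. That test called 0 of the 10 genes, beside 0.379% of all genes tested (73 genes, 0.171% higher and 0.208% lower in the MIR211 line). DESeq2, run on the same counts, called SMAD3 and LTBP2. At an unadjusted p under 0.05, edgeR picked 10.9% of all genes.

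**Figure D1:**
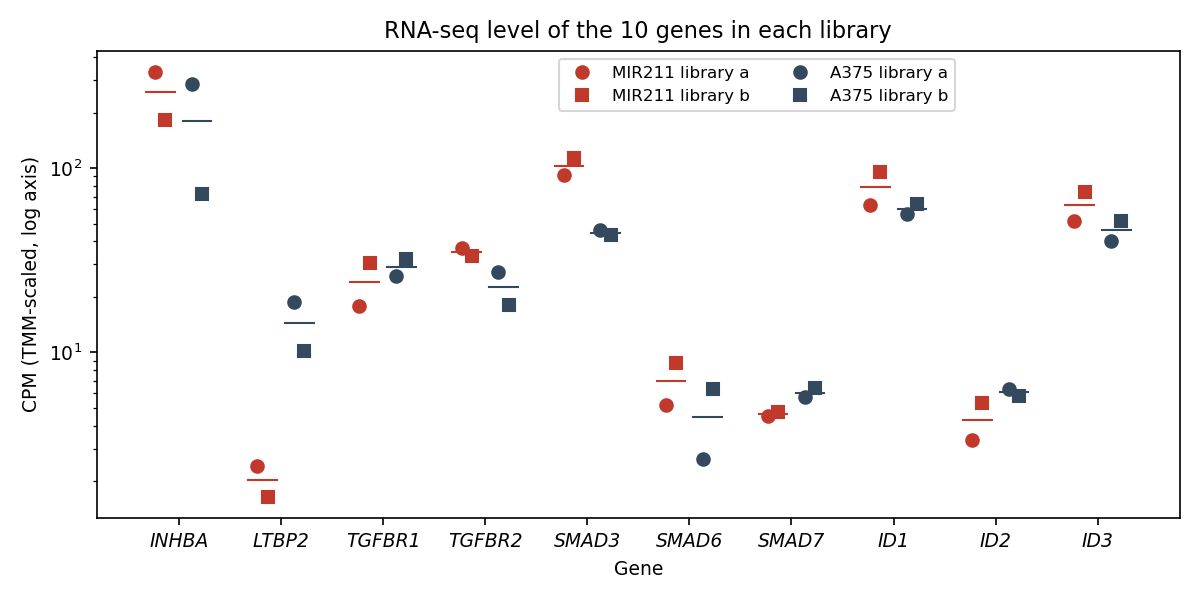
RNA-seq level of each gene on a log axis in CPM, with the MIR211 libraries left of the A375 libraries, circles for library a, squares for library b and a line at the mean of 2. SMAD3 sits at 91.7 and 113 CPM in the MIR211 line, above 45.9 and 43.3 CPM in A375, and LTBP2 sits at 2.42 and 1.65 CPM in the MIR211 line, below 18.8 and 10.2 CPM in A375.

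Of the 10 genes, TGFBR2, SMAD3 and ID3 had both MIR211 libraries above both A375 libraries, and SMAD7, LTBP2 and ID2 had both below. Of all genes tested, 20.7% stood above in this way and 20.3% below, or 41% together. Per kilobase of exon, the order of mean levels in the MIR211 line was led by ID1 at 64, ID3 at 42.1 and INHBA at 31.1 CPM per kb, and LTBP2 was last at 0.224. In A375 the same 3 genes led, with ID1 at 48.6, ID3 at 30.7 and INHBA at 21.6 CPM per kb, and SMAD6 was last at 0.523. Next in the MIR211 line came SMAD3 at 10.2, TGFBR2 at 5.14, TGFBR1 at 3.02, ID2 at 1.95, SMAD7 at 1.17 and SMAD6 at 0.814 CPM per kb. In A375 the same middle ranks went to SMAD3 at 4.45, TGFBR1 at 3.62, TGFBR2 at 3.31, ID2 at 2.74, LTBP2 at 1.6 and SMAD7 at 1.53 CPM per kb. Neighbours in this order whose libraries overlapped were ID3 and INHBA in both lines, TGFBR1 and ID2 in the MIR211 line, and, in A375, TGFBR1 and TGFBR2, TGFBR2 and ID2, and LTBP2 and SMAD7.

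INHBA encodes the beta-A subunit that forms activin A, a ligand of the pathway. Its labelled RNA was far higher in the MIR211 line, by 7.48-fold over the chase times, while its total RNA did not pass the test. INHBA (ENSG00000122641) lies at chr7:41667168-41705834 on the minus strand. In RNA-seq it had 332 and 183 CPM in the MIR211 line, against 286 and 72.1 CPM in A375. The ranges overlapped, and library a was above library b in both lines. The RNA-seq difference was 0.53 on the log2 scale (SE 0.69, adjusted p = 0.886 in edgeR).

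In BRIC-seq, INHBA was at 557, 502, 210 and 55.9 CPM in the MIR211 line at 0, 1, 3 and 6 h, against 47.4, 74.8, 31.0 and 10 CPM in A375. The MIR211 line was above A375 at each of the 4 times, by 11.8-fold at 0 h and 5.56-fold at 6 h. The line difference over matched times, in which the 4 times stand in for replicates, was 2.90 on the log2 scale (SE 0.18, edgeR adjusted p = 0.000288). Of all genes tested, 98.8% had a lower line difference. Counts were ample, with 6029 summed over the chase in the MIR211 line and 790 in A375.

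LTBP2, a protein of the microfibril matrix in the family of latent TGF-beta binding proteins, was lower in the MIR211 line in labelled RNA. LTBP2 lies at chr14:74498183-74612378 on the minus strand. Its BRIC-seq levels were 1.63, 1.39, 2.76 and 4.41 CPM in the MIR211 line at 0, 1, 3 and 6 h, against 2.65, 5.28, 6.90 and 7.43 CPM in A375. The MIR211 line was below A375 at each time, and in both lines the 6 h library was the highest. These levels rest on 6 to 18 counts per library in the MIR211 line and 9 to 50 in A375. The labelled line difference fell by 1.17 on the log2 scale (SE 0.28, edgeR adjusted p = 0.0266), or 2.25-fold. Leaving out the 1 h or 3 h library of either line ended this call, with adjusted p between 0.0973 and 0.136, as did testing with no count filter (adjusted p = 0.0524). LTBP2 passed the low-count filter, which asked for 1.85 CPM in 4 libraries, through A375, where 4 libraries reached it against 3 in the MIR211 line. In RNA-seq the 2 MIR211 libraries were both below the A375 libraries, with 82 and 51 counts in the MIR211 line and 382 and 294 in A375 (edgeR adjusted p = 0.09, and 0.0491 with no count filter).

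TGFBR2 is the type II kinase that binds TGF-beta, and TGFBR1 is the type I kinase that passes the signal to SMADs. In labelled RNA, TGFBR2 was 2.3-fold higher in the MIR211 line, whereas TGFBR1 did not pass the test. TGFBR2 (ENSG00000163513) lies at chr3:30606601-30694142 on the plus strand. Its labelled RNA was at 72.3, 85.3, 29.3 and 6.62 CPM in the MIR211 line at 0, 1, 3 and 6 h, against 26.2, 33.0, 16.8 and 3.01 CPM in A375. The MIR211 line was higher at each time, by 2.76-fold at 0 h and by 1.74-fold at 3 h, its smallest. The line difference was 1.20 on the log2 scale (SE 0.16, edgeR adjusted p = 0.00339). RNA-seq gave TGFBR2 36.9 and 33.5 CPM in the MIR211 line, against 27.4 and 18 CPM in A375, without overlap (edgeR adjusted p = 0.484).

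TGFBR1 (ENSG00000106799), at chr9:99104038-99154192 on the plus strand, had 17.9 and 30.4 CPM in RNA-seq of the MIR211 line and 25.8 and 32.1 CPM in A375. The ranges overlapped, and the log2 difference was -0.26 (SE 0.31, edgeR adjusted p = 0.871). Its labelled RNA was at 47.3, 63.3, 63.4 and 28.7 CPM in the MIR211 line at 0, 1, 3 and 6 h, against 52.1, 56.0, 66.2 and 40.8 CPM in A375. Neither line was ahead throughout, and the labelled line difference was -0.13 (SE 0.14, edgeR adjusted p = 0.534).

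SMAD3, the receptor SMAD that carries TGF-beta and activin signals to the nucleus, had total RNA at a higher level in both MIR211 libraries without passing edgeR's test, and its labelled RNA did not pass either. SMAD3 lies at chr15:67063763-67195173 on the plus strand. Total RNA averaged 103 ± 15.3 CPM in the MIR211 line and 44.6 ± 1.81 CPM in A375 (SD, n = 2 each). Both MIR211 libraries stood above both A375 libraries, with a log2 difference of 1.20 (SE 0.19, edgeR adjusted p = 0.0952, DESeq2 adjusted p = 6.63e-05). In BRIC-seq, SMAD3 was at 126, 149, 118 and 24.5 CPM in the MIR211 line at 0, 1, 3 and 6 h, against 131, 143, 100 and 33.4 CPM in A375. The lines changed order from time to time, with the MIR211 line above A375 at 1 and 3 h, and the labelled line difference was -0.03 (SE 0.12, edgeR adjusted p = 0.884).

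SMAD6 and SMAD7 are the inhibitory SMADs, which block receptor signalling and recruit ubiquitin ligases to it. Both had fewer labelled counts in the MIR211 line, at levels too low for the test across genes. SMAD6, at chr15:66702236-66782849 on the plus strand, had 2, 7, 11 and 4 BRIC-seq counts in the MIR211 line at 0, 1, 3 and 6 h, against 12, 13, 20 and 6 in A375. SMAD7, at chr18:48919853-48950965 on the minus strand, had 12, 3, 0 and 0 counts in the MIR211 line and 23, 13, 0 and 0 in A375. SMAD7 was thus not detected at 3 or 6 h in either line, where 3 counts, the limit that a count of 0 allows, would be 0.517 and 0.735 CPM in the MIR211 line and 0.414 and 0.603 CPM in A375. Summed over the chase, the MIR211 line held 0.515 times the A375 level of SMAD6 (exact 95% interval 0.303 to 0.852) and 0.456 times that of SMAD7 (0.232 to 0.854). These intervals and floors cover counting error only, since reads are not independent molecules. In RNA-seq, SMAD6 was at 5.15 and 8.77 CPM in the MIR211 line against 2.65 and 6.30 CPM in A375, with overlap. SMAD7 was at 4.51 and 4.76 CPM in the MIR211 line against 5.70 and 6.37 CPM in A375, without overlap (edgeR adjusted p = 0.771 for SMAD6 and 0.663 for SMAD7).

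Of the ID genes, ID3 was 7.76-fold lower in labelled RNA of the MIR211 line, and ID1 and ID2 had fewer labelled counts there. In total RNA no ID gene passed the test. ID3 (ENSG00000117318), at chr1:23557926-23559501 on the minus strand, had 51.6 and 74.2 CPM in RNA-seq of the MIR211 line and 40.2 and 51.6 CPM in A375. The lowest MIR211 library and the highest A375 library were level to 3 digits, and the log2 difference was 0.45 (SE 0.26, edgeR adjusted p = 0.632). Labelled ID3 was at 3.81, 5.16, 1.03 and 1.23 CPM in the MIR211 line at 0, 1, 3 and 6 h, against 48.3, 48.6, 5.24 and 3.21 CPM in A375. It was lower in the MIR211 line at each time, with A375 over the MIR211 line at 12.7-fold at 0 h and 2.62-fold at 6 h. These levels rest on 14, 26, 6 and 5 counts in the MIR211 line and 164, 230, 38 and 16 in A375. The smaller ratio at 6 h thus leans on counts near the floor. The labelled line difference fell by 2.96 on the log2 scale (SE 0.35, edgeR adjusted p = 0.00248). ID3 passed the low-count filter through A375, reaching 1.85 CPM in 4 A375 libraries but in 2 of the MIR211 line, so its presence among tested genes leans on the line in which it was high.

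ID1 (ENSG00000125968), at chr20:31605283-31606515 on the plus strand, had 62.9 and 94.9 CPM in RNA-seq of the MIR211 line, against 56.1 and 63.9 CPM in A375. Its labelled counts were 3, 4, 2 and 2 in the MIR211 line at 0, 1, 3 and 6 h, against 34, 13, 2 and 5 in A375. The separation was at 0 and 1 h, and both lines were near the floor of 3 counts later. Summed over the chase, 11 counts in the MIR211 line stood against 54 in A375, which is 4.49-fold lower in the MIR211 line (exact 95% interval 2.32 to 9.52).

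ID2, at chr2:8678845-8684461 on the plus strand, had no labelled count in the MIR211 line at any time and 4, 8, 4 and 0 counts in A375. Against the floor of 3 counts over the group, ID2 came out 4.87-fold lower in the MIR211 line, with the 16 counts in A375 taken as exact. With the counting error of those 16 counts also held, the exact 95% limit was at least 3.53-fold lower. As for ID1, these limits cover counting error only. Total RNA of ID2 was at 3.33 and 5.31 CPM in the MIR211 line, below 6.34 and 5.78 CPM in A375, with a log2 difference of -0.49 (SE 0.31, edgeR adjusted p = 0.682).

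**Figure D2:**
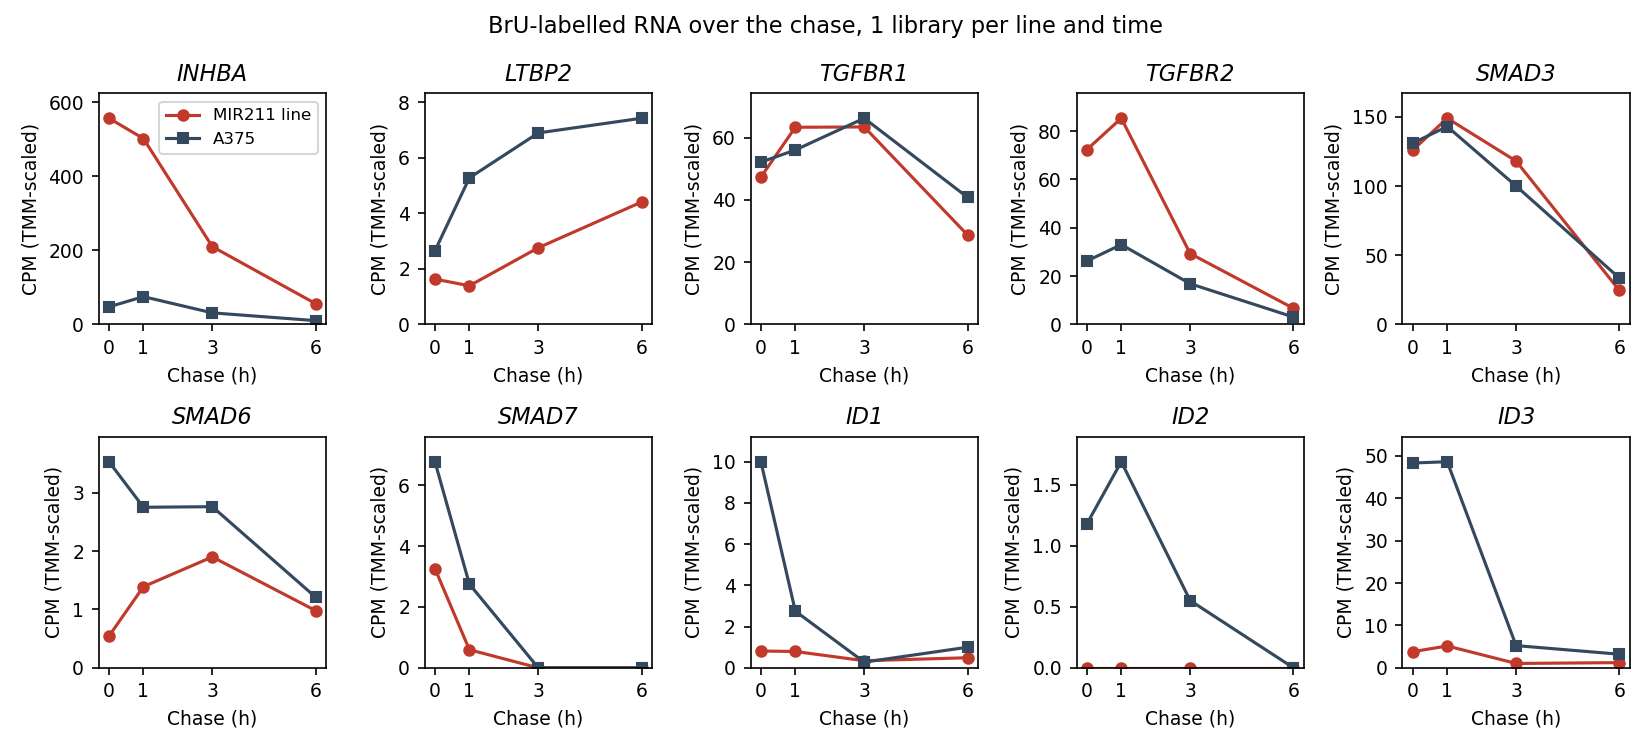
Labelled RNA in CPM, each panel starting at 0, against hours of chase for the 10 genes, with the MIR211 line as circles, A375 as squares and 1 library per point. INHBA and TGFBR2 run above A375 at each time, ID3 and LTBP2 run below it, and TGFBR1 and SMAD3 cross it.

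In the labelled line difference, 4 of the 6 tested genes passed, beside 25.9% of all genes tested (13.6% higher and 12.3% lower). INHBA and TGFBR2 were higher and LTBP2 and ID3 lower in the MIR211 line. LTBP2 and ID3 passed the low-count filter through A375, where they were higher. The members were also chosen with earlier results of these data known, so the 4 of 6 cannot be weighed against that share. Of all genes tested, 22.9% were above A375 at all 4 times and 25.3% below it at all 4. The median line difference of the 6 was -0.08, beside -0.05 for all genes tested. Holding glycolytic mRNAs constant moved that median to -0.53, and TGFBR1, at -0.61, and SMAD3, at -0.52, then passed as lower, while the other 4 kept their direction and call.

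The line difference in BRIC-seq was then set against that in RNA-seq in 1 fit over all 12 libraries, a comparison chosen after the values were seen. It was lower in BRIC-seq than in RNA-seq for SMAD3 by -1.24 on the log2 scale (SE 0.23, edgeR adjusted p = 0.0193) and for ID3 by -3.43 (SE 0.48, edgeR adjusted p = 0.00626). These 2 of 6 compare with 5.21% of all genes tested, or 2.19% in this direction. The SMAD3 call was lost without MIR211 RNA-seq library b, at -1.08 (adjusted p = 0.0872). INHBA, at 2.37 (SE 0.70), TGFBR2, at 0.56 (SE 0.31), LTBP2, at 1.65 (SE 0.51), and TGFBR1, at 0.13 (SE 0.33), did not pass. INHBA passed in DESeq2, at 2.39 (adjusted p = 0.00681), and without A375 RNA-seq library b, at 3.05 (edgeR adjusted p = 0.00913). LTBP2 also passed without that library, at 2.02 (edgeR adjusted p = 0.0465).

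**Figure D3:**
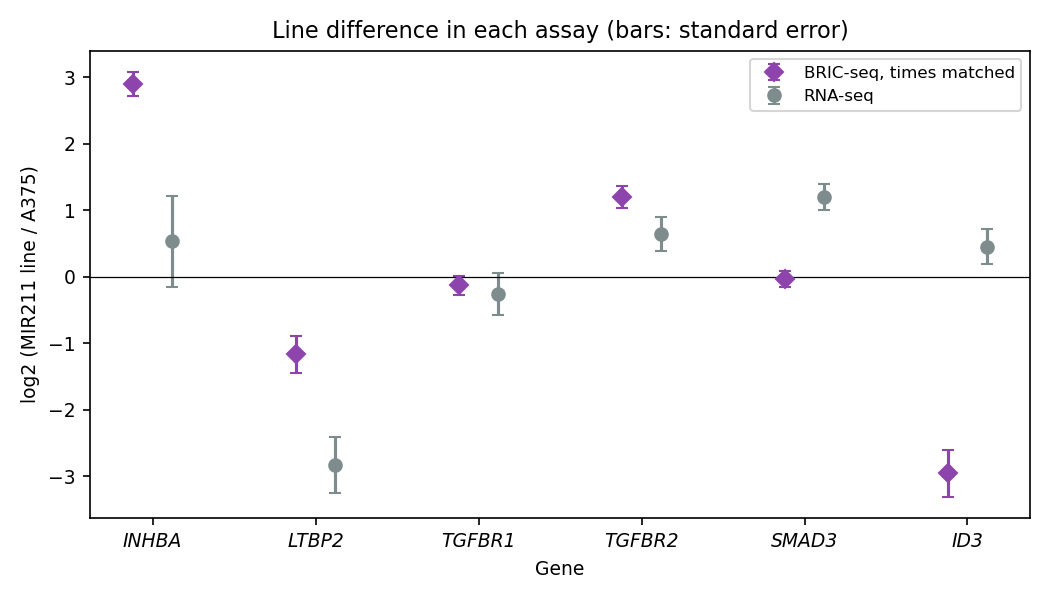
Line difference, log2 of the MIR211 line over A375, in BRIC-seq over matched times (diamonds) and in RNA-seq (circles) for the 6 genes tested in both, with bars of 1 standard error. ID3 lies at -2.96 in BRIC-seq and 0.45 in RNA-seq, and SMAD3 lies at -0.03 in BRIC-seq and 1.20 in RNA-seq.

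The same contrast of assays can be read within a line as labelled RNA at 0 h over mean total RNA, on a log2 scale with 0.5 CPM added. Each value rests on 1 BRIC-seq library, so it is a description with no test, and its median over 12677 genes was -0.37 in the MIR211 line and -0.38 in A375. In the MIR211 line, ID1 was at -5.92 and ID3 at -3.88, with 0.41% and 4.09% of genes lower, while INHBA was at 1.11. In A375, ID1 was at -2.52 and ID3 at 0.07, while INHBA was at -1.90. ID3 and INHBA thus lay on opposite sides of those medians in the 2 lines. So did SMAD6 (-2.84 in the MIR211 line and -0.30 in A375), SMAD7 (-0.45 and 0.15) and LTBP2 (-0.25 and -2.25), from low labelled counts. The share of all genes that changed sides is not given here.

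Labelled INHBA, TGFBR2, SMAD3 and ID3 fell over the chase relative to the TMM-adjusted total of each library, and labelled LTBP2 rose relative to it. The chase slope is the change in log2 CPM per hour. It is relative to the TMM-adjusted total, so a positive slope means a rise against that total and not synthesis. Averaged over both lines, it was -0.63 for ID3 (SE 0.13), -0.59 for TGFBR2 (SE 0.08), -0.52 for INHBA (SE 0.06) and -0.37 for SMAD3 (SE 0.07), with edgeR adjusted p between 0.000184 and 0.00279. LTBP2 had a slope of 0.23 (SE 0.07, edgeR adjusted p = 0.0155), and TGFBR1 had -0.10 (SE 0.06, edgeR adjusted p = 0.168). In all, 5 of 6 passed, beside 64.3% of all genes tested (29.9% with a positive slope and 34.4% with a negative one), whose median slope was -0.04. The LTBP2 call was lost without the A375 0 h library (adjusted p = 0.0526) or the MIR211 6 h library (adjusted p = 0.0576), and its slope turned to -0.26 where glycolytic mRNAs were held constant. That scaling moved the median slope of all genes to -0.52, and TGFBR1, at -0.58, then passed. With total counts TGFBR1 passed too, at -0.26 (adjusted p = 0.00726), and LTBP2 did not, at 0.06 (adjusted p = 0.645).

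TGFBR2 at 0 h was 10.9 times its 6 h level in the MIR211 line and 8.69 times in A375. INHBA showed 9.97 times in the MIR211 line and 4.72 times in A375, and SMAD3 showed 5.15 times in the MIR211 line and 3.93 times in A375. ID3 went the other way, with 3.11 times in the MIR211 line, from 14 and 5 counts, and 15 times in A375, from 164 and 16 counts. The loss was uneven in time, since TGFBR2 and SMAD3 were higher at 1 h than at 0 h in both lines.

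Within the MIR211 line, 3 of the 6 slopes passed, each negative, beside 42.9% of all genes tested (21% negative). Within A375, 4 passed, each negative, beside 47.2% (24.2% negative). TGFBR2 had -0.63 (SE 0.11) in the MIR211 line and -0.54 (SE 0.12) in A375, and INHBA had -0.58 (SE 0.09) in the MIR211 line and -0.45 (SE 0.09) in A375. SMAD3 had -0.40 (SE 0.11) in the MIR211 line and -0.35 (SE 0.10) in A375. These 3 passed in both lines, but SMAD3 did not pass in either line without that line's 1 h library (adjusted p = 0.0728 in the MIR211 line and 0.081 in A375) or with no count filter (0.067 in the MIR211 line and 0.0958 in A375). SMAD3's A375 slope was also lost without the MIR211 1 h library (adjusted p = 0.0579). ID3 had -0.38 (SE 0.19) in the MIR211 line, where it did not pass (edgeR adjusted p = 0.137), and -0.75 (SE 0.15) in A375, where it did (edgeR adjusted p = 0.00792). ID3 did pass in the MIR211 line with total counts, at -0.55 (adjusted p = 0.0305), and with glycolytic mRNAs held constant, at -0.84 (adjusted p = 0.00494). Without the 6 h library of a line, no slope of that line passed, for these genes or any other.

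**Figure D4:**
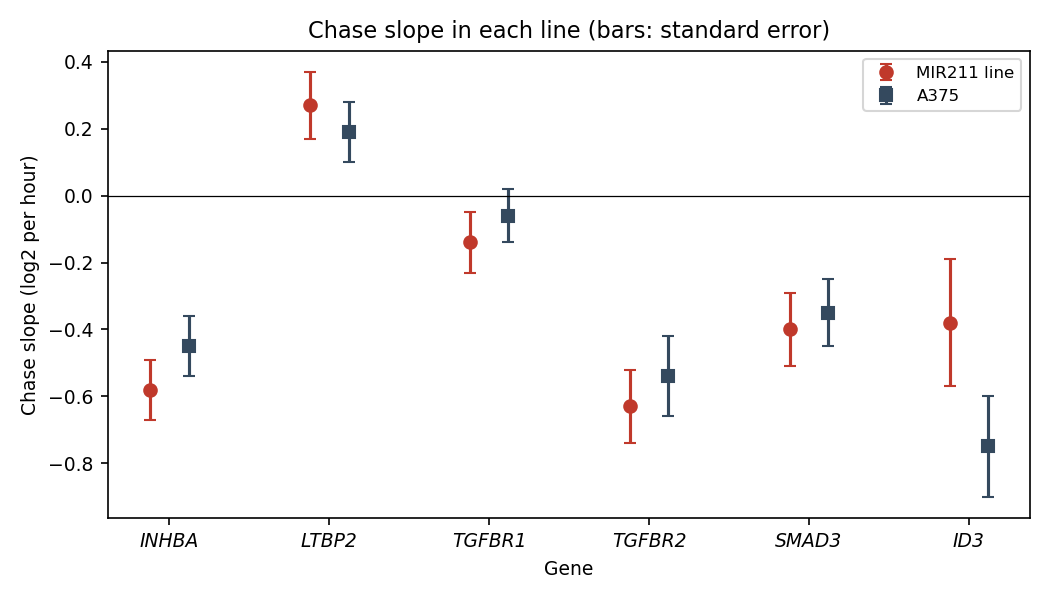
Chase slope in log2 CPM per hour in the MIR211 line (circles) and in A375 (squares) for the 6 tested genes, with bars of 1 standard error. TGFBR2, INHBA and SMAD3 lie below 0 in both lines, LTBP2 lies at 0.27 in the MIR211 line and 0.19 in A375, and ID3 lies at -0.38 in the MIR211 line and -0.75 in A375.

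The slope difference itself, the MIR211 line minus A375, was 0.37 for ID3 (SE 0.26) and lay between -0.13 and 0.09 for the other genes. The ID3 value was 0.04 (SE 0.50) without the MIR211 6 h library and 0.77 (SE 0.35) without the A375 6 h library. With edgeR, 0 of 6 passed, beside 0% of all genes tested, and each adjusted p was 1. Across all genes, 527 (3.85%) had an unadjusted p under 0.05 and DESeq2 called 14. With 4 libraries per line these data do not resolve slope differences of this size. INHBA's slope difference, for example, was -0.13 with a standard error of 0.12.

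The 3' UTR letters were also read beside the slopes. AU-rich heptamers TATTTAT, which are known as destabilising elements, were searched on the sense strand and occurred in 31.5% of 3' UTRs. The heptamer contains the pentamer ATTTA, so matches to both overlap. INHBA held 4 heptamers, SMAD3 and ID2 held 2 each, TGFBR1, SMAD6 and SMAD7 held 1 each, and the windows of TGFBR2, LTBP2, ID1 and ID3 held no such letters. The 4 of INHBA are shown, in capitals within 30 bases of the minus strand, as the gene with the most of them.
INHBA, chr7:41686149-41686178: agaagaccaaccaatttcaTATTTATttaa
INHBA, chr7:41685707-41685736: catgtctcagctatattatTATTTATtttt
INHBA, chr7:41685341-41685370: tatgtcaatggtttcttaaTATTTATtgtg
INHBA, chr7:41685247-41685276: atgtgtttatagcagaagtTATTTATttct
Mean slopes were -0.63 for ID3 and -0.59 for TGFBR2, each with 0 heptamers, and -0.52 for INHBA, with 4. SMAD3, with 2 heptamers, had -0.37, and LTBP2, with 0, had 0.23. TGFBR1, with 1 heptamer and 11 pentamers, had -0.10, which did not pass. The 3' UTR windows differed in length, with 4536 bases in INHBA, 4887 in TGFBR1, 2543 in TGFBR2 and 515 in ID3. The part of these letters in the slopes was not tested.

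Of the 10 genes, 4 overlap an annotated antisense gene, and the strand setting of the counting is not given in the sources used here, so reads of the pair cannot be told apart where they overlap. INHBA-AS1, over 248 bases of INHBA exon, had 12 BRIC-seq counts in the MIR211 line and 0 in A375. ID2-AS1, over 145 bases of ID2, had no BRIC-seq count in either line. The antisense genes at SMAD3 and LTBP2 had no counts in either assay.

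The genes whose labelled profile ran closest to a member's, by Pearson's r of log2 CPM over the 8 BRIC-seq libraries, were UBE2R2 (0.993) and AFF1 (0.992) for TGFBR2 and DEPDC7 (0.988) and PLEKHA5 (0.983) for INHBA. They were GNE (0.998) and KLHL18 (0.994) for SMAD3 and PHF6 (0.987) and STARD7 (0.986) for TGFBR1. The search ran over 4272 genes, and the 8 libraries share the same 2 lines and the same course of time, so high values of r arise readily.

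Beyond the 10 genes, 107 others of the pathway were listed by role, and 66 of them were tested in BRIC-seq. In labelled RNA, 15 of these 66 were higher and 11 lower in the MIR211 line, which compares with the 13.6% and 12.3% of all genes above. With glycolytic mRNAs held constant the split was 10 higher and 25 lower, and with total counts it was 12 and 12. Leaving out 1 BRIC-seq library gave 10 to 13 higher and 6 to 8 lower. In RNA-seq, 1 of 84 was higher and 0 lower: TGM2, a transglutaminase, at 100 and 156 CPM in the MIR211 line against 5.46 and 8.84 CPM in A375 (edgeR adjusted p = 0.0472). Of all genes, 0.171% were higher and 0.208% lower, and leaving out any of the 4 RNA-seq libraries ended the TGM2 call (adjusted p between 0.0509 and 0.097).

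Among ligands, 1 of 9 was higher and 2 lower in labelled RNA. GDF11 rose by 1.57 on the log2 scale, whereas GDF15 fell by 6.20 and BMP7 fell by 4.88. In the MIR211 line, labelled GDF15 was at 1.63, 1.39, 1.55 and 1.96 CPM and BMP7 at 1.09, 0.793, 0 and 0 CPM. The floor of 3 counts there was 0.517 to 0.816 CPM. Labelled GDF15 in A375 was uneven, at 93.3, 8.03, 237 and 238 CPM. Both genes were tested because of their level in A375, so the size of these folds leans on counts near the floor. Among latency and matrix genes, 4 of 8 were higher and 1 lower, with the TGF-beta activating integrin subunit ITGB8 up by 3.17 and ITGAV up by 0.92, and with the fibrillin FBN2 down at -3.16. Labelled FBN2 was also near the floor in the MIR211 line, at 0.544, 0.595, 0.862 and 1.47 CPM, against 3.24, 5.28, 7.17 and 17.7 CPM in A375. Of 11 receptors and co-receptors, BMPR1B was higher, at 1.67, and ACVR2B lower, at -1.86. The list of receptor and common SMADs had 6 tested genes, among them ZFYVE9, which is not a SMAD. Of these, SMAD2 was higher, at 0.34, which turned to -0.14 with glycolytic mRNAs held constant.

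Of 15 inhibitors and feedback genes, 4 were higher and 2 lower. FST encodes follistatin, which binds and blocks activin, and its labelled level was 64.2, 62.9, 26.4 and 22.5 CPM in the MIR211 line at 0, 1, 3 and 6 h, against 3.53, 5.28, 5.38 and 3.01 CPM in A375. FST was thus higher at each time, like INHBA, with a log2 difference of 3.18 (SE 0.31, edgeR adjusted p = 0.00128). The BMP antagonist CHRDL1 was lower, at -2.47. Of 13 response genes, 4 were higher and 3 lower, with THBS1 at 3.57, TGFBI at 3.68 and TGM2 at 5.99, against FN1 at -1.75 and SNAI2 at -2.79. Some of these levels were near the floor in 1 line. Labelled SNAI2 was at 3.81, 2.38, 0 and 0 CPM in the MIR211 line, and labelled TGM2 at 2.06, 0.423, 1.52 and 4.02 CPM in A375. Of ID4 and the E proteins, TCF3 was lower, at -0.87, and TCF12 lower, at -0.25, though TCF12 was not called with RLE scaling (-0.21, adjusted p = 0.0721). Calls lost when a library of either line was left out were those of SNAI2 (1 h), ACVR2B (0 or 1 h), BMPR1B (1 or 3 h), SMAD2 (1, 3 or 6 h), TCF3 (0, 1 or 6 h) and TCF12 (any). In RNA-seq, TGM2 alone of these genes passed. In the fit over both assays, 4 of the 66 had a higher line difference in BRIC-seq than in RNA-seq and 4 a lower one. Of all genes tested, 5.21% passed there. Those passing included TGFBI (3.67), BMPR1B (3.13), SNAI2 (-2.86), CHRDL1 (-2.12) and FN1 (-1.94). BMPR1B ran the other way in total RNA, at 0.972 and 0.971 CPM in the MIR211 line against 3.83 and 1.6 CPM in A375.

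Over the chase, 20 of the 66 had a positive mean slope that passed and 27 a negative one, beside 29.9% and 34.4% of all genes, so the positive share is that of the background. With glycolytic mRNAs held constant it was 0 and 52, so positive slopes here are relative to the scaling used and not a level. In the matrix list, which is that of LTBP2's role, 7 of its 8 tested genes had positive slopes, beside 29.9% of all genes (0 positive and 3 negative with glycolytic mRNAs held constant), among them ITGAV at 0.39, FBN1 at 0.35 and LTBP1 at 0.43. In the list of receptor and common SMADs, 5 of 6 had negative slopes (3 without the A375 6 h library), beside 34.4% of all genes. Among them were SMAD1 at -0.71, SMAD5 at -0.42 and SMAD4 at -0.34. Labelled SMAD1 was at or under the floor of 3 counts at 6 h, with 0.735 CPM in the MIR211 line and 0 CPM in A375. Of 11 receptors and co-receptors, 6 had negative slopes, beside 34.4% of all genes, such as RGMB at -0.71, ACVR2A at -0.50 and BMPR1A at -0.38, and ENG had a positive slope of 0.36, which turned to -0.13 with glycolytic mRNAs held constant. ID4, the remaining ID gene, had a slope of -0.81 (SE 0.19, edgeR adjusted p = 0.00565). Labelled ID4 was at 3.81, 3.17, 0 and 0 CPM in the MIR211 line and at 4.42, 3.81, 0.552 and 0.603 CPM in A375. Its slope thus leans on counts near the floor at 3 and 6 h. The median slope was 0.36 for the matrix list and -0.24 for the SMAD list, beside -0.04 for all genes tested, and 0 of the 66 passed for the slope difference.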

How the data were processed

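The deposited tables hold whole-number read counts per Ensembl gene, with no normalization by the authors. HISAT2 2.1.0, StringTie and hg19 are named per the submitters' processing notes, while the design text names hg38 and DESeq2. A kit for stranded total RNA was used, per the labels' protocols. A row naming no gene, 0.000108 to 0.00122% of a BRIC-seq library, was left out.

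Symbols came from GENCODE 44, which named 93.2% of 60675 IDs. Counts were filtered with filterByExpr (minimum count 10), scaled by TMM and tested with edgeR 4.0.16 (quasi-likelihood) in R 4.3.3. RNA-seq compared lines. BRIC-seq was fitted with hours as a slope per line, or with time as a factor plus line, so departures from those terms give the error. Intervals on count ratios are exact (95%). The scripts were tested on simulated data. Low counts kept 4 members out of the BRIC-seq tests. The members and lists were chosen with earlier results of these data known, and the joint fit of assays after values were seen. Named pathway genes were, per role and direction, the passing genes with the smallest p, at most 3. The FST and TGM2 levels illustrate genes so named, and 1 gene that the rule names is not reported here. Alternatives were RLE scaling, total counts, glycolytic mRNAs held constant, DESeq2 1.42.0, other filters, a replicate block and leaving out each library.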

Additional observations from a re-analysis of the deposited data

Results flagged for a closer look

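Results are listed here because the line difference, the MIR211 line over A375, was not the same in the 2 assays by a test of that difference. For ID3 the BRIC-seq line difference minus the RNA-seq line difference was -3.43 on the log2 scale (SE 0.48, edgeR adjusted p = 0.00626), with labelled ID3 lower in the MIR211 line at 4 of 4 times. For SMAD3 it was -1.24 (SE 0.23, edgeR adjusted p = 0.0193), with both MIR211 RNA-seq libraries above both A375 libraries and the labelled levels crossing. The test was chosen after the values were seen, and assay, library preparation and sequencing depth change together between the tables, so they cannot be told apart.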

How the results depend on the processing

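In RNA-seq, edgeR called 0 of the 10 genes and 73 in all. DESeq2 called 2 of the 10 and 748 in all, and no count filter gave 1 and 237. Letters a and b were also fitted as a replicate block, which gave 1 (LTBP2, -2.80, adjusted p = 0.0387) and 192. Labels do not say that the letters pair libraries, and deviations from the line means correlated at r = 0.47 across 5961 genes. Leaving out 1 RNA-seq library gave 0 to 15 genes in all, TGFBR1 at -0.69 to 0.08 and INHBA at -0.15 to 1.83.

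With glycolytic mRNAs held constant, the median slope of all genes moved to -0.52 and the median labelled line difference to -0.53. LTBP2's slope then turned to -0.26 on average, -0.20 in the MIR211 line and -0.31 in A375. Slopes passed for 10960 genes in the MIR211 line and 10826 in A375, and the line difference for 6818. In the MIR211 line 5 members passed with this scaling and 5 with total counts. Total counts moved the median slope of all genes, averaged over both lines, to -0.20. The number of all genes passing with total counts is not given here, so that count of members has no background beside it. SMAD3's labelled line difference was 0.01 with RLE and 0.02 with DESeq2. For the slope difference DESeq2 called 14 genes and no filter 1. For the assay difference DESeq2 called 1331.

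Leaving out 1 BRIC-seq library gave 0 to 3 members and 0 to 5870 genes for the MIR211 slope, with TGFBR1 at -0.24 to 0.10, and 0 to 4 members and 0 to 6770 genes for the A375 slope, with TGFBR1 at -0.11 to 0.13. The slope difference ran over -0.26 to 0.13 for TGFBR1, -0.37 to 0.06 for TGFBR2, -0.26 to 0.25 for SMAD3, -0.30 to 0.00 for INHBA, -0.12 to 0.18 for LTBP2 and 0.04 to 0.77 for ID3. The labelled line difference called 1739 to 2863 genes, with TGFBR1 at -0.23 to 0.03 and SMAD3 at -0.12 to 0.12. The assay difference called 1 to 4 members and 269 to 880 genes, with TGFBR1 at -0.20 to 0.57. The cause of these changes was not tested.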
